A study of Mus musculus with 30 samples.

Results

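The collagen chains were studied in gonadal white adipose tissue (gWAT), the fat depot next to the ovaries, of diabetes-prone (DP) and diabetes-resistant (DR) mice. Members were all rows of the gene table whose symbol consists of Col, a number, a lower-case a and a number, which gave 44 of 55401 genes. They were sorted by the known structure of their proteins into 11 fibrillar chains, 8 basement membrane chains, 6 type VI chains, 9 FACIT chains (fibril-associated collagens with interrupted triple helices) and 10 other chains. Of the 44 chains, 35 had enough counts to be tested and 9 did not.

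All 30 mice were female NZO/HIBomDife, an inbred obese strain, and carried no transgene. Each had received a high-fat diet for 5 weeks when a risk score put it into the DP group (n = 15) or into the healthy DR group that served as controls (n = 15), and gWAT was taken at 10 weeks of age. DP therefore stands for a predicted outcome, in mice of 1 genetic background that had not yet become hyperglycaemic, and each library is bulk RNA of 1 mouse. The comparison asked which collagen chains differed in fat tissue between the 2 classes before diabetes.

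Collagens are trimers of chains that are wound into a triple helix in the endoplasmic reticulum, hydroxylated and glycosylated there, secreted, trimmed and crosslinked outside the cell. Fibrillar collagens give fat tissue its tensile strength, type IV collagen forms the sheet-like network of the basement membrane that surrounds every adipocyte and vessel, and type VI collagen forms beaded filaments between that sheet and the fibrils. In adipose tissue most interstitial collagen comes from fibroblast-like stromal cells and progenitors, whereas adipocytes and endothelial cells also make basement membrane chains. Gain of fibrillar and type VI collagen is a known feature of obese fat tissue.

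Libraries held 28146906 to 29974243 estimated counts each. Collagen chains made up 1.48 to 2.15% of all counts in DP libraries, with a median of 1.84%, and 1.29 to 1.82% in DR libraries, with a median of 1.45%, so the groups overlapped. Adipocyte markers were abundant, with summed levels of 18360 to 27328 CPM in DP and 27142 to 34273 CPM in DR. Ovary and reproductive tract markers summed to 5.07 to 11.2 CPM in DP and 4.36 to 9.91 CPM in DR. Among them, *Fshr* and *Cyp19a1* had no count, while *Star* averaged 5.05 CPM in DP and 5.06 CPM in DR. Levels in CPM are counts scaled to a common library total, after adjustment of the totals by TMM (trimmed mean of M values). Some libraries recurred at the edges of their groups: DP replicate 14 was the lowest DP library for 17 of the 35 tested chains, DP replicate 3 was the highest DP library for 13, and DR replicate 9 was the highest DR library for 14.

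Among the 35 tested chains, 17 were higher in DP than in DR gWAT, 3 were lower and 15 were not called (edgeR's quasi-likelihood test, Benjamini-Hochberg adjusted p below 0.05 over the 17482 genes tested). The background was high: 28.2% of all tested genes were called higher in DP, 27.3% were called lower and 55.5% were called in either direction. The share of collagen chains called higher was thus 48.6%, against 28.2% of all genes, and the share called lower was 8.57%, against 27.3%. The median log2 fold change, DP over DR, was 0.17 over the 35 chains and -0.006 over all genes tested. With at least a 1.5-fold difference required, 7 of the 35 chains were higher and 3 of the 35 were lower. Among the 17482 genes tested, 1239 (7.09%) were higher and 805 (4.60%) were lower at that minimum.

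The counts are given by class, and the difference between classes was not tested on them. Of the fibrillar chains 8 of 9 tested were higher in DP and 0 were lower, with a median log2 fold change of 0.56. Of the basement membrane chains 2 of 8 (25%) were higher and 2 (25%) were lower, close to the 28.2% and 27.3% of all genes, with a median of -0.044. Type VI chains had 3 of 6 higher, 0 lower and a median of 0.20, FACIT chains 1 of 4 (25%, again near the share of all genes) higher, 0 lower and a median of 0.11, and the other chains 3 of 8 higher, 1 lower and a median of 0.093. The 0 calls lower in DP refer to the edgeR fit: at an unadjusted p below 0.05, 18 of the 35 chains were higher and 5 were lower, and none of the 5 was a fibrillar chain.

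**Figure D1:**
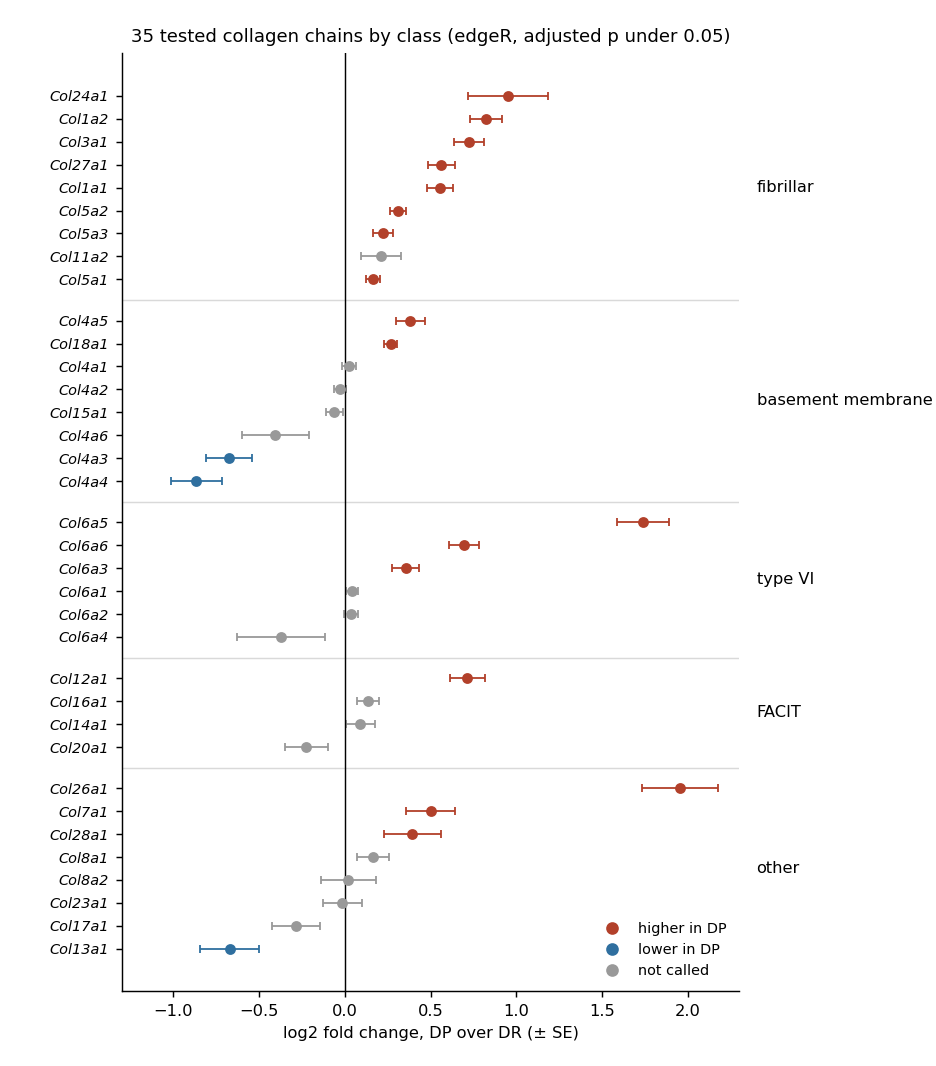
Log2 fold change of each tested collagen chain, DP over DR, with its standard error as a horizontal bar, grouped by class and coloured by the edgeR call. The 9 fibrillar chains all lie right of 0, between 0.16 and 0.95, while the 8 basement membrane chains run from -0.87 to 0.38.

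Per exon length, the collagen RNA of gWAT came mostly from 6 chains. Exon length here merges all annotated exons of a gene, which gave 12426 bases for *Col1a2* against 6563 for *Col1a1*. The order of the chains and the class shares thus depend on the annotation. Averaged over the 30 libraries, the levels were 365 FPKM (CPM per kilobase of exon) for *Col6a1*, 329 for *Col4a1*, 309 for *Col3a1*, 256 for *Col1a1*, 224 for *Col4a2* and 204 for *Col6a2*. Together these chains held 74.7 to 76.5% of the summed collagen FPKM in DP and 74.2 to 77.0% in DR libraries. At the other end, 22 of the 44 chains averaged under 1 FPKM, 13 of which were tested. Of the 16 chains with at least 5 FPKM, 9 were called higher in DP and 0 were called lower in the edgeR fit. Over all 17482 tested genes of any level, 28.2% were called higher and 27.3% lower. The share among genes of at least 5 FPKM was not computed, so these chains have no matched background. The 3 chains that were lower in DP all averaged under 1 FPKM.

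The make-up of the collagen pool shifted towards fibrils. Fibrillar chains held 37.2 to 46.7% of the summed collagen FPKM in DP libraries, with a median of 40.7%, against 28.4 to 36.5% in DR libraries, with a median of 32.5%. Basement membrane chains held 27.5 to 32.9% (median 30.9%) in DP, against 33.7 to 38.4% (median 36.7%) in DR. Neither class overlapped between the groups. Type VI chains held 24.2 to 28.6% (median 26.4%) in DP, against 28.4 to 31.4% (median 29.8%) in DR, with the ranges just touching. These are shares of 1 whole, so a larger share of one class lowers the others. As levels and not as shares, summed fibrillar chains averaged 993 ± 130 FPKM in DP and 668 ± 94.5 FPKM in DR (SD, n = 15 each), a ratio of 1.49. The summed basement membrane level was 740 ± 55.3 FPKM in DP and 736 ± 42.6 FPKM in DR. FPKM are scaled to the total of each library, so these are relative levels and not absolute amounts of RNA in the tissue. Summed type VI chains averaged 644 ± 51.9 FPKM in DP and 608 ± 41.6 FPKM in DR, and all 44 chains averaged 2413 ± 200.3 FPKM in DP and 2044 ± 162 FPKM in DR.

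**Figure D2:**
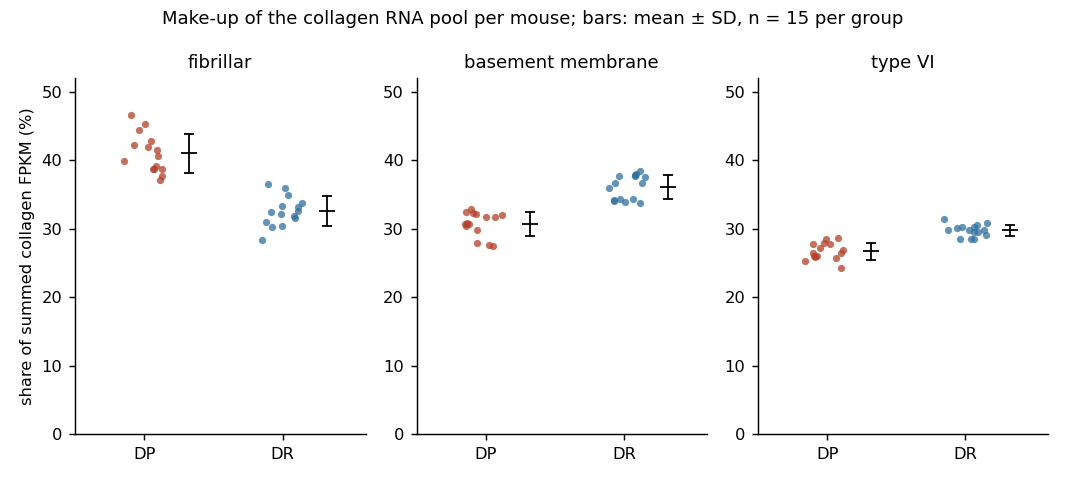
Share of the summed collagen FPKM, in percent, held by fibrillar, basement membrane and type VI chains, with 1 point per mouse, DP left and DR right, and bars for mean ± SD (n = 15 each). All 15 DP points lie above all DR points for fibrillar chains, 37.2% or more against 36.5% or less, and below all DR points for basement membrane chains.

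The main fibril formers rose together. Type I collagen, the most abundant protein of connective tissue, is built from the chains of *Col1a1* and *Col1a2*. *Col1a2* ranged from 973 to 1776 CPM in DP gWAT (median 1364), against 541 to 1080.3 CPM in DR gWAT (median 709.9). It was 1.77-fold higher in DP (log2 fold change 0.82, SE 0.093, edgeR adjusted p = 1.25e-08), and 14 of 15 DP libraries lay above the highest DR library. *Col1a1* ranged from 1508 to 2764 CPM in DP (median 1972), against 1092 to 1892 CPM in DR (median 1369). It was 1.47-fold higher (log2 fold change 0.56, SE 0.075, edgeR adjusted p = 2.31e-07), and the groups overlapped more, with 9 DP libraries above the highest DR library. *Col3a1*, whose product forms homotrimers that share fibrils with type I collagen, ranged from 2618 to 4663 CPM in DP (median 3871), against 1658 to 3226 CPM in DR (median 2366). It was 1.65-fold higher in DP (log2 fold change 0.72, SE 0.088, edgeR adjusted p = 4.17e-08), with 12 DP libraries above all DR libraries. In all 3 genes the lowest DP library was replicate 14, the lowest DR library was replicate 1 and the highest DR library was replicate 9. Together the 3 chains held 28.8 to 38.9% of the collagen FPKM in DP (median 32.98%), against 20.3 to 28.3% in DR (median 23.8%).

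**Figure D3:**
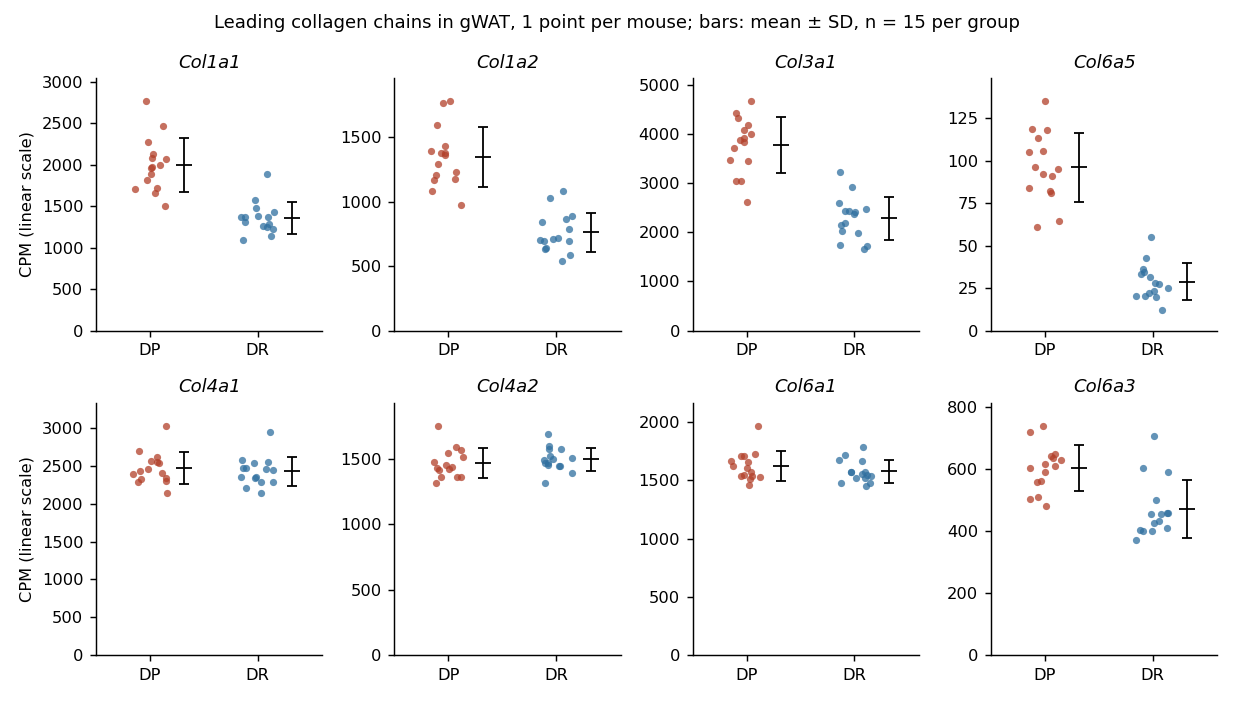
CPM on linear axes that start at 0 for 8 chains, with 1 point per mouse, DP left and DR right, and bars for mean ± SD (n = 15 each). *Col1a1*, *Col1a2*, *Col3a1*, *Col6a3* and *Col6a5* were called higher in DP, with *Col6a5* the only chain whose groups do not overlap, while *Col4a1*, *Col4a2* and *Col6a1* were not called.

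The promoters of chains that moved together are shown for reference, as 300-base windows from 250 bases before to 50 bases after the annotated start (RefSeq, GRCm38.p6), read 5′ to 3′ on the strand of the gene. Windows were found for 35 of the 44 chains, 38 windows in all, and *Col1a1* had none. Capitals mark matches, on either strand, to 3 short motifs, and no marked run holds more than 1 match. The CCAAT motif has the letters of its name. The GC box was searched as GGGCGG. For the TATA motif the letters TATAAA were used. Of 32851 mouse windows of the same length, 37.4% held the CCAAT motif, 35.7% held the GC box and 13.6% held the TATA motif. Of the 38 collagen windows, 13 held the CCAAT motif, 23 the GC box and 5 the TATA motif. The *Col1a2* window lies at chr6:4505368-4505667 on the plus strand and the *Col3a1* window at chr1:45311288-45311587 on the plus strand.
Col1a2: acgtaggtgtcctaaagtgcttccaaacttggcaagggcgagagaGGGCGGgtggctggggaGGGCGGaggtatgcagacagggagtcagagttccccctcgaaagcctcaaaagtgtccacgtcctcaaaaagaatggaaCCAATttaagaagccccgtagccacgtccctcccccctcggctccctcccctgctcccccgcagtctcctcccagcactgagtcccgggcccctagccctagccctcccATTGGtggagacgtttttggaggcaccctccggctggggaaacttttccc
Col3a1: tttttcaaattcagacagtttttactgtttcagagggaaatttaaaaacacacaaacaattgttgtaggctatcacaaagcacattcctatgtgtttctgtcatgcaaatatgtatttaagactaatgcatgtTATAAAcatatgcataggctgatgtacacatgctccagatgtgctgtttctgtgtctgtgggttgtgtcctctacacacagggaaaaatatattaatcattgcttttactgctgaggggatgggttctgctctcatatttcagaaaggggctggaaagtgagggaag
The windows of these fibril genes had none of the searched motifs in common. The *Col1a2* window held 2 matches to the CCAAT motif and 2 to the GC box at a GC content of 61%. The *Col3a1* window held 1 match to the TATA motif and neither of the others, at a GC content of 37.7%. The median GC content was 59.8% over the collagen windows and 52.7% over all windows. A match to these letters is a description and not a binding site.

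Type V collagen, which sits inside type I fibrils and sets their number and width, was higher too, but by less. *Col5a2* ranged from 420.3 to 630.2 CPM in DP (median 525), against 373 to 508 CPM in DR (median 415). It was 1.24-fold higher (log2 fold change 0.31, SE 0.045, edgeR adjusted p = 7.2e-07), with 12 DP libraries above all DR libraries. *Col5a3* ranged from 434 to 599 CPM in DP (median 546), against 373 to 573 CPM in DR (median 465), and was 1.17-fold higher (log2 fold change 0.22, SE 0.058, edgeR adjusted p = 0.0017). *Col5a1* ranged from 446 to 596 CPM in DP (median 512), against 399.7 to 572 CPM in DR (median 454), and was 1.12-fold higher (log2 fold change 0.16, SE 0.043, edgeR adjusted p = 0.00164). The groups of *Col5a1* and *Col5a3* overlapped over most of their range, and 1 and 5 DP libraries lay above the highest DR library.

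The minor fibrillar chains were expressed at about 1 FPKM or less. *Col27a1*, best known from developing cartilage, ranged from 12.6 to 18.1 CPM in DP (median 16.03), against 7.26 to 15.1 CPM in DR (median 10.3). It was 1.48-fold higher (log2 fold change 0.56, SE 0.077, edgeR adjusted p = 2.6e-07), and all 15 DP libraries lay above the DR median. *Col24a1*, known from bone and cornea, was 1.93-fold higher (edgeR adjusted p = 0.000801) at mean levels of 1.22 CPM in DP and 0.625 CPM in DR. *Col11a2* was not called, with a log2 fold change of 0.21 (SE 0.12, edgeR adjusted p = 0.118) and mean levels of 1.41 CPM in DP and 1.22 CPM in DR. The cartilage chains *Col2a1* and *Col11a1* had too few counts to be tested.

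Basement membrane chains moved in both directions or were not called. Type IV collagen of most tissues is built from *Col4a1* and *Col4a2*, which both stood among the 6 most abundant collagen RNAs here per exon length. *Col4a1* ranged from 2140.0 to 3036 CPM in DP (median 2439.8), against 2145 to 2954 CPM in DR (median 2447). Its log2 fold change was 0.024 (SE 0.043, edgeR adjusted p = 0.651), with a 95% interval from -0.06 to 0.11. *Col4a2* ranged from 1319 to 1757 CPM in DP (median 1439), against 1321 to 1693 CPM in DR (median 1491), with a log2 fold change of -0.027 (SE 0.037, edgeR adjusted p = 0.549) and a 95% interval from -0.10 to 0.04. The ranges of both genes nearly coincided between the groups, with DP replicate 14 and DR replicate 12 lowest and DP replicate 3 and DR replicate 9 highest in both.

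*Col4a1* and *Col4a2* lie head to head on chromosome 8 (GRCm38; *Col4a1* from 11198423 to 11312826 on the minus strand, *Col4a2* from 11312805 to 11449287 on the plus strand) and their annotated ends overlap by 22 bases. Their promoter windows, shown because the pair varied together from mouse to mouse, cover chr8:11312777-11313076 on the minus strand and chr8:11312555-11312854 on the plus strand, share 78 bases and have starts 21 bases apart. Capitals mark the same motifs as above.
Col4a1: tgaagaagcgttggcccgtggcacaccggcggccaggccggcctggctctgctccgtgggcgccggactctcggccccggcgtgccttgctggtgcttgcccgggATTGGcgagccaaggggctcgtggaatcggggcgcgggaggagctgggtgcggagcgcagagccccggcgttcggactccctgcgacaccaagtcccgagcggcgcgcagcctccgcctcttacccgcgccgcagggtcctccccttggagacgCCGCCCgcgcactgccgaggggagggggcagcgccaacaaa
Col4a2: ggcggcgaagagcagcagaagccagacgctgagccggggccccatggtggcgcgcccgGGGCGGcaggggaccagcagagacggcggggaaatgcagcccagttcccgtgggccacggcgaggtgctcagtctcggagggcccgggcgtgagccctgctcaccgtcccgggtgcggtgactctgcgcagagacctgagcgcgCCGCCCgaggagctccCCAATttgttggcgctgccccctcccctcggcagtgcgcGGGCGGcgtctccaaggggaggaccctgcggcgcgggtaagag
Both windows were rich in G and C, at 74% for *Col4a1* and 73.7% for *Col4a2*. The *Col4a1* window held 1 match to the CCAAT motif and 1 to the GC box, and the *Col4a2* window held 1 to the CCAAT motif and 3 to the GC box. The GC box match of the *Col4a1* window and 1 of the 3 in the *Col4a2* window are the same site, within the 78 shared bases. Counts of the pair were also related across mice: Pearson's r of log2 CPM was 0.98 in the 15 DP libraries (adjusted permutation p = 5e-05) and 0.95 in the 15 DR libraries (adjusted permutation p = 5e-05), with Spearman's rho of 0.97 and 0.91. Without the 2 libraries farthest from the median, r was 0.97 in DP and 0.91 in DR.

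Of the type IV chains known from kidney glomeruli, *Col4a3* and *Col4a4* fell and *Col4a5* rose. *Col4a4* ranged from 0.739 to 2.67 CPM in DP (median 1.35), against 1.64 to 3.93 CPM in DR (median 2.51). It was 1.82-fold lower in DP (log2 fold change -0.87, SE 0.15, edgeR adjusted p = 1.05e-05), and 10 of 15 DP libraries lay below the lowest DR library. *Col4a3* ranged from 0.529 to 1.47 CPM in DP (median 1.15), against 0.997 to 2.35 CPM in DR (median 1.77). It was 1.59-fold lower (log2 fold change -0.67, SE 0.13, edgeR adjusted p = 7.1e-05), with 7 DP libraries below all DR libraries. Exons of *Col4a3* overlap those of the opposite-strand transcript *C430014B12Rik* over 563 bases, or 5.65% of its exon length. Since counting by strand is not stated, reads from that stretch cannot be assigned. *C430014B12Rik* averaged 65.6 counts per library over its whole length against 39.7 for *Col4a3*, so the level of *Col4a3* and its call are uncertain. *Col4a5*, which pairs with these chains in the glomerulus and with *Col4a6* elsewhere, went the other way. It ranged from 9.46 to 17.2 CPM in DP (median 12.7), against 7.30 to 12.5 CPM in DR (median 9.73), and was 1.3-fold higher (log2 fold change 0.38, SE 0.082, edgeR adjusted p = 0.000196). *Col4a6* had mean levels of 2.04 CPM in DP and 2.71 CPM in DR and was not called (log2 fold change -0.40, SE 0.20, edgeR adjusted p = 0.0783).

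*Col4a4* and *Col4a3* also lie head to head, on chromosome 1 (*Col4a4* from 82448423 to 82586849, *Col4a3* from 82586921 to 82722059), with 71 bases between them. Only *Col4a4* of this pair had a promoter window, at chr1:82586800-82587099 on the minus strand, and it is shown because both genes that share this start region fell.
Col4a4: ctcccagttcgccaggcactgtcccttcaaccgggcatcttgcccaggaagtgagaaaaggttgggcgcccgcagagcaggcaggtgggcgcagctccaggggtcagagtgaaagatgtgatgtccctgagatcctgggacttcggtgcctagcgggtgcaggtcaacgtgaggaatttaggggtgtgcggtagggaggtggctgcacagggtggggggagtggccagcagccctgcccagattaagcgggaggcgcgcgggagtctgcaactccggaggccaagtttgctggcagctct
None of the 3 motifs was found in this window, at a GC content of 63.3%. The third head-to-head pair, *Col4a6* and *Col4a5* on the X chromosome, lies 1308 bases apart and did not move in one direction, with *Col4a5* higher in DP and *Col4a6* not called.

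The multiplexins, collagens of the basement membrane zone that carry glycosaminoglycan chains, differed from each other. *Col18a1*, whose product releases endostatin, ranged from 273 to 387 CPM in DP (median 338), against 255 to 300.2 CPM in DR (median 278). It was 1.2-fold higher (log2 fold change 0.27, SE 0.039, edgeR adjusted p = 7.56e-07), and 13 of 15 DP libraries lay above the highest DR library. *Col15a1* ranged from 686 to 1039 CPM in DP (median 863), against 787 to 1021 CPM in DR (median 889.6), and was not called (log2 fold change -0.060, SE 0.048, edgeR adjusted p = 0.302, 95% interval from -0.15 to 0.03). The groups of *Col15a1* overlapped almost fully.

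Of the type VI chains, *Col6a3*, *Col6a5* and *Col6a6* rose and *Col6a1*, *Col6a2* and *Col6a4* were not called. *Col6a1* and *Col6a2* are common to all type VI trimers, and the remaining place is taken by the chain of *Col6a3* or, in some tissues, of *Col6a4*, *Col6a5* or *Col6a6*. *Col6a1* ranged from 1457 to 1969 CPM in DP (median 1609), against 1450.2 to 1785 CPM in DR (median 1558), with a log2 fold change of 0.043 (SE 0.037, edgeR adjusted p = 0.331) and a 95% interval from -0.03 to 0.11. *Col6a2* ranged from 1537 to 2101 CPM in DP (median 1694), against 1495 to 1976 CPM in DR (median 1639), with a log2 fold change of 0.036 (SE 0.041, edgeR adjusted p = 0.474) and a 95% interval from -0.04 to 0.12. The groups of both core chains overlapped almost fully.

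*Col6a3*, whose product releases the peptide endotrophin, ranged from 481 to 739.5 CPM in DP (median 609), against 372 to 706 CPM in DR (median 456). It was 1.28-fold higher (log2 fold change 0.36, SE 0.079, edgeR adjusted p = 0.000296), and all 15 DP libraries lay above the DR median, although 4 DR libraries at 499 to 706 CPM reached into the DP range. *Col6a6* ranged from 37.2 to 67.2 CPM in DP (median 54.6), against 24.9 to 43.7 CPM in DR (median 32.04). It was 1.62-fold higher (log2 fold change 0.69, SE 0.087, edgeR adjusted p = 6.61e-08), with 12 DP libraries above all DR libraries. *Col6a4* ranged from 0.537 to 1.94 CPM in DP (median 0.976), against 0.351 to 4.37 CPM in DR (median 1.23), and was not called (log2 fold change -0.37, SE 0.26, edgeR adjusted p = 0.227). Its human counterpart is a broken gene, and its spread among DR mice was wide.

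*Col6a5* was the only tested chain whose groups did not overlap. It ranged from 61.1 to 135 CPM in DP (median 95.4), against 12.2 to 55.3 CPM in DR (median 27.5). It was 3.33-fold higher in DP (log2 fold change 1.74, SE 0.15, edgeR adjusted p = 3.93e-10). Every DP library lay above every DR library for 343 of 17482 tested genes (1.96%), and every DP library lay below for 162 (0.927%). Of the 35 chains the counts were 1 and 0, which is near those shares. *Col6a6*, *Col6a5* and *Col6a4* lie in a row on the minus strand of chromosome 9, with 27917 bases between *Col6a6* and *Col6a5* and 28810 bases between *Col6a5* and *Col6a4*. The first 2 rose while the third was not called. The *Col6a5* window at chr9:105960594-105960893 on the minus strand is shown because this gene had the lowest p-value among the collagen chains, and it held 1 match to the GC box, in capitals.
Col6a5: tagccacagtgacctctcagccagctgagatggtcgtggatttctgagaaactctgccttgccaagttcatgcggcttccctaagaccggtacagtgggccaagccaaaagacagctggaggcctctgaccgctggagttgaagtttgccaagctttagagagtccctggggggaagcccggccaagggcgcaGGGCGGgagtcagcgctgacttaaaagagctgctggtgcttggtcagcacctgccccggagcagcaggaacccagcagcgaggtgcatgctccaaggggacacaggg

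FACIT chains attach to the surface of fibrils. *Col12a1*, which binds type I fibrils in tissues under load, ranged from 38.2 to 79.8 CPM in DP (median 60.5), against 24.9 to 51.7 CPM in DR (median 34.6). It was 1.64-fold higher (log2 fold change 0.71, SE 0.10, edgeR adjusted p = 5.87e-07), with 11 DP libraries above all DR libraries. Its close relative *Col14a1* ranged from 65.9 to 129 CPM in DP (median 104), against 71.1 to 131 CPM in DR (median 93.4), and was not called (log2 fold change 0.092, SE 0.086, edgeR adjusted p = 0.377, 95% interval from -0.08 to 0.26). *Col14a1* was the most abundant FACIT chain at 13.8 FPKM. *Col16a1* ranged from 59.4 to 94.98 CPM in DP (median 76.1), against 55.9 to 85.1 CPM in DR (median 65.1), and missed the threshold (log2 fold change 0.14, SE 0.065, edgeR adjusted p = 0.0735), which it passed with no composition factor (0.0352) and without DR replicate 6 (0.0391). Of its 15 DP libraries, 12 lay above the DR median. *Col20a1* ranged from 0.971 to 2.59 CPM in DP (median 1.90), against 1.30 to 2.88 CPM in DR (median 2.097), and was not called (log2 fold change -0.22, SE 0.13, edgeR adjusted p = 0.136). Its exons overlap the same-strand transcript *BX649560.1* over 79 bases, or 1.54% of its exon length, and reads from that stretch cannot be assigned. That transcript averaged 241 counts per library over its whole length against 56.9 for *Col20a1*, so the level of *Col20a1* is uncertain. *Col9a1*, *Col9a2*, *Col9a3*, *Col19a1* and *Col22a1* had too few counts to be tested.

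The other chains were scarce. *Col26a1*, a little-studied secreted collagen, had the largest fold change of the 35 tested chains. It ranged from 2.62 to 8.998 CPM in DP (median 6.38), against 0.379 to 2.97 CPM in DR (median 1.24), and was 3.87-fold higher (log2 fold change 1.95, SE 0.22, edgeR adjusted p = 1.4e-08), with 14 of 15 DP libraries above the highest DR library. *Col7a1*, which forms the anchoring fibrils of skin, ranged from 0.4496 to 1.54 CPM in DP (median 1.06), against 0.378 to 1.24 CPM in DR (median 0.724), and was 1.42-fold higher (log2 fold change 0.50, SE 0.14, edgeR adjusted p = 0.0037). *Col28a1*, known in mouse from peripheral nerve, ranged from 0.869 to 2.91 CPM in DP (median 1.58), against 0.680 to 2.08 CPM in DR (median 1.27), and was 1.31-fold higher (log2 fold change 0.39, SE 0.17, edgeR adjusted p = 0.0426). Its call was lost in 16 of the 30 fits that each left out 1 library, with adjusted p between 0.0197 and 0.0853.

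Among the chains anchored in the cell membrane, *Col13a1* ranged from 0.609 to 3.18 CPM in DP (median 1.88), against 1.82 to 4.75 CPM in DR (median 2.56). It was 1.59-fold lower in DP (log2 fold change -0.67, SE 0.17, edgeR adjusted p = 0.00142), and 6 DP libraries lay below the lowest DR library. *Col17a1*, the hemidesmosomal collagen of epithelia, had a log2 fold change of -0.28 (SE 0.14, edgeR adjusted p = 0.0803) and *Col23a1* one of -0.014 (SE 0.11, edgeR adjusted p = 0.926). The short-chain collagens *Col8a1* and *Col8a2*, which form networks beneath vascular and corneal endothelium, had log2 fold changes of 0.17 (SE 0.093, edgeR adjusted p = 0.131) and 0.021 (SE 0.16, edgeR adjusted p = 0.925). *Col10a1* and *Col25a1* had too few counts. Over the 30 libraries together, the 9 untested chains had between 4 and 301 counts, and *Col9a3*, which had most, shares 6.07% of its exon length with *Tcfl5* on the opposite strand.

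Whether chains of 1 molecule, or of 2 classes, changed to a different degree was tested on the ratio of their counts within each library, which does not depend on scaling. Of 8 ratios, 7 differed between DP and DR (two-sided permutation test with 100000 resamples, p adjusted over the 8). These are count ratios and not ratios of molecules, since the transcripts differ in length. The type I chains shifted against each other: the median ratio of *Col1a1* to *Col1a2* was 1.46 in DP and 1.79 in DR, a difference of -0.28 on the log2 scale (SE 0.049, adjusted permutation p = 5.33e-05). The log2 ratio ran from 0.45 to 0.74 in DP and from 0.52 to 1.13 in DR, so the groups overlapped, with a wider spread in DR. *Col1a1* also rose less than *Col3a1*, with a difference of -0.18 in the log2 ratio (SE 0.055, adjusted permutation p = 0.00326), and *Col5a1* less than *Col5a2*, with a difference of -0.145 (SE 0.031, adjusted permutation p = 0.000208).

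Within type VI collagen, *Col6a3* rose relative to *Col6a1*. The ratio of *Col6a2* to *Col6a1* did not pass the test, at a median of 1.06 in both groups and a log2 difference of -0.006 (SE 0.016, adjusted permutation p = 0.71), whereas the ratio of *Col6a3* to *Col6a1* had a median of 0.376 in DP and 0.291 in DR (log2 difference 0.33, SE 0.063, adjusted permutation p = 6e-05). The ratio of *Col15a1* to *Col18a1* was 2.57 in DP and 3.28 in DR at the median (log2 difference -0.32, SE 0.051, adjusted permutation p = 4e-05). The ratio of *Col4a1* to *Col4a2* varied least between mice, with a median of 1.69 in DP and 1.62 in DR, and its small log2 difference of 0.052 passed the test (SE 0.012, adjusted permutation p = 0.00032). The ratio of the fibrillar *Col1a1* to the basement membrane chain *Col4a1* was 0.744 in DP and 0.559 in DR at the median, with a log2 difference of 0.53 (SE 0.073, adjusted permutation p = 4e-05). For the last of these and for *Col15a1* to *Col18a1* the unadjusted p of 1e-05 was the smallest that the resamples can give. In all 15 DP libraries the ratio of *Col1a1* to *Col4a1* was above the DR median.

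**Figure D4:**
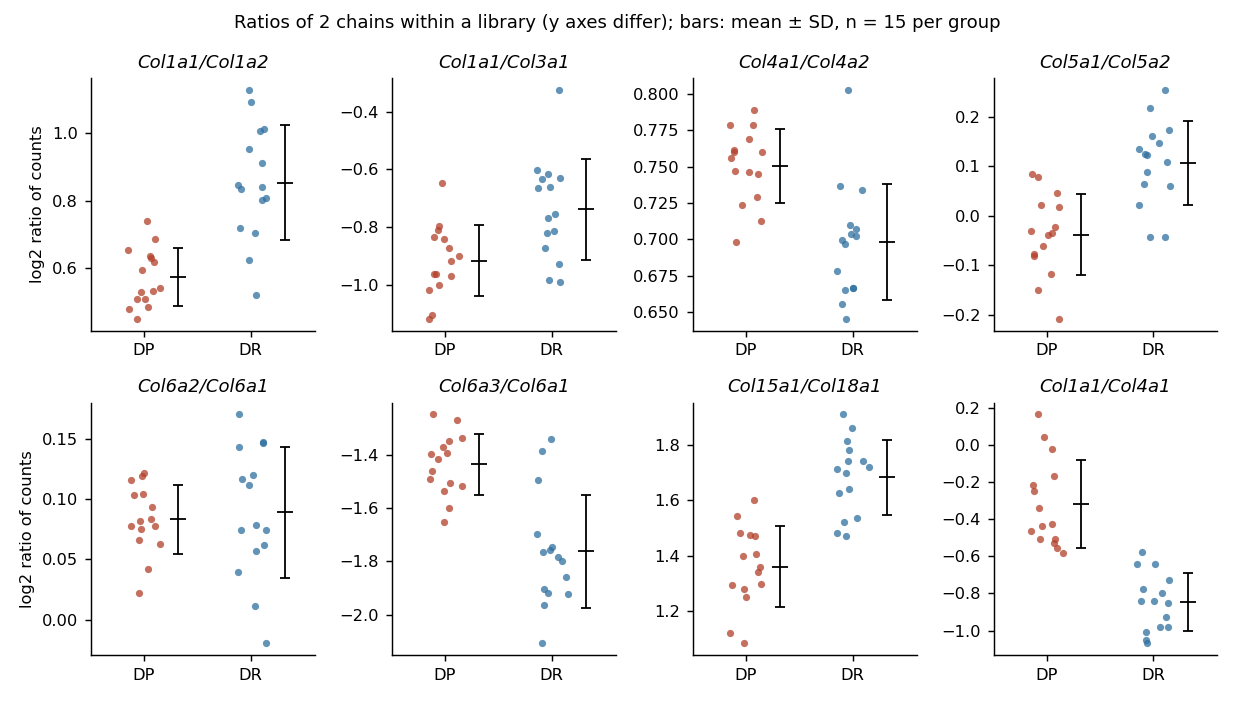
Log2 ratio of the counts of 2 chains within each library, with 1 point per mouse, DP left and DR right, and bars for mean ± SD (n = 15 each); the y axes differ and do not start at 0. *Col1a1*/*Col4a1* and *Col6a3*/*Col6a1* lie higher in DP, *Col1a1*/*Col1a2* and *Col15a1*/*Col18a1* lie lower in DP, and *Col6a2*/*Col6a1* runs from 0.022 to 0.122 in DP, inside the wider DR range of -0.020 to 0.17.

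Within a group, mice that had more of one fibril former had more of the other. Pearson's r of log2 CPM between *Col1a1* and *Col3a1* was 0.85 over the 15 DP libraries (rho 0.84, adjusted permutation p = 6.67e-05) and 0.77 over the 15 DR libraries (rho 0.63, adjusted permutation p = 0.00138). Without the 2 libraries farthest from the median of *Col1a1*, r was 0.85 in DP and 0.55 in DR. *Col6a1* and *Col6a3* were related with r of 0.78 in DP (rho 0.78, adjusted permutation p = 0.00107, r 0.64 without 2 libraries) and 0.65 in DR (rho 0.60, adjusted permutation p = 0.0153, r 0.71 without 2 libraries). *Col1a1* and *Col4a1* had an r of 0.18 in DP (rho 0.089, adjusted permutation p = 0.508, r -0.032 without 2 libraries). In DR their r was 0.59 (adjusted permutation p = 0.0393), but rho was 0.33 (adjusted permutation p = 0.29), and r was 0.061 without the 2 farthest libraries, so the relation rests on those libraries. With the macrophage marker *Adgre1*, *Col1a1* had an r of 0.54 in DP (rho 0.57, adjusted permutation p = 0.0487, r 0.44 without 2 libraries) and 0.19 in DR (rho 0.079, adjusted permutation p = 0.508, r -0.044 without 2 libraries). In all, 10 relations were computed, and differences in r between the groups were not tested.

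Most genes of the list that modifies and folds procollagen were higher in DP. Of its 20 genes, all tested, 14 were higher in DP, 1 was lower and 5 were not called, with a median log2 fold change of 0.21, against -0.006 over all genes. For this and all later lists, the background was 28.2% of all tested genes called higher and 27.3% called lower. *Colgalt1*, which adds galactose to hydroxylysine, averaged 177 ± 10.2 CPM in DP and 140.5 ± 12.1 CPM in DR (SD, n = 15 each) and was 1.26-fold higher (edgeR adjusted p = 1.31e-08). *P4hb*, the subunit shared by the prolyl 4-hydroxylases, was 1.19-fold higher (edgeR adjusted p = 1.62e-07), and *P3h3*, of the prolyl 3-hydroxylase family, was 1.31-fold higher (edgeR adjusted p = 2.33e-07). The gene that fell was *Colgalt2*, the second galactosyltransferase, 1.46-fold lower at 2.27 CPM in DP and 3.31 CPM in DR (edgeR adjusted p = 3.5e-05); it was picked for its direction.

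Propeptide removal and crosslinking genes showed the same direction in most members. Of 7 cleavage genes 4 were higher, 1 was lower and 2 were not called, with a median log2 fold change of 0.32. The 2 enhancers of procollagen C-proteinase moved in opposite directions: *Pcolce* averaged 188 ± 19.7 CPM in DP and 121 ± 14.8 CPM in DR and was 1.56-fold higher (edgeR adjusted p = 6.98e-10), while *Pcolce2* averaged 91.4 ± 18.9 CPM in DP and 195 ± 32.4 CPM in DR and was 2.13-fold lower (edgeR adjusted p = 4.04e-10). *Bmp1*, the C-proteinase itself, was 1.4-fold higher (edgeR adjusted p = 2.02e-09). Of the 5 lysyl oxidases, which crosslink collagen and elastin, 4 were higher and *Loxl4* was not called, with a median of 0.32. *Loxl3* was 1.45-fold, *Loxl2* 1.4-fold and *Lox* 1.25-fold higher in DP (edgeR adjusted p = 4.31e-09, 6.51e-06 and 0.000315).

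Collagen degradation and uptake genes had the largest median of the collagen-related lists, 0.83 on the log2 scale, with 11 of 15 higher in DP, 3 lower and 1 not called. *Mmp3*, or stromelysin-1, averaged 44.6 ± 7.84 CPM in DP and 20.2 ± 4.29 CPM in DR and was 2.21-fold higher (edgeR adjusted p = 3.93e-10). *Mmp14*, a membrane-bound collagenase, was 1.84-fold higher (edgeR adjusted p = 4.97e-10), and *Timp1*, an inhibitor of these proteases, was 2.56-fold higher (edgeR adjusted p = 2.96e-09). The 3 genes of this list that were lower in DP were *Timp3*, *Mmp9* and *Mmp15*, by 1.28-fold to 1.3-fold, and they were chosen to be named once their direction was known. Several genes of the list are also made by macrophages.

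Collagen receptors were mixed, with 5 of 10 higher, 2 lower, 3 not called and a median log2 fold change of 0.14. *Lair1*, an inhibitory collagen receptor of leukocytes, was 1.98-fold higher in DP (edgeR adjusted p = 1.14e-08). *Itga1*, the alpha subunit of a collagen-binding integrin, was 1.41-fold lower (edgeR adjusted p = 2.63e-08), and *Antxr2*, a receptor for basement membrane proteins and type VI collagen, was 1.19-fold higher (edgeR adjusted p = 2.69e-05). Of 12 partners of the fibril, 6 were higher, 2 were lower and 4 were not called, with a median of 0.17. *Lum* and *Postn*, a leucine-rich proteoglycan and a matricellular protein bound to type I collagen, were 1.55-fold and 1.53-fold higher (edgeR adjusted p = 3.12e-09 and 1.53e-08), while *Sparc*, a collagen-binding glycoprotein, averaged 6170.2 ± 429.7 CPM in DP and 7814 ± 422 CPM in DR and was 1.27-fold lower (edgeR adjusted p = 2.28e-09).

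**Figure D5:**
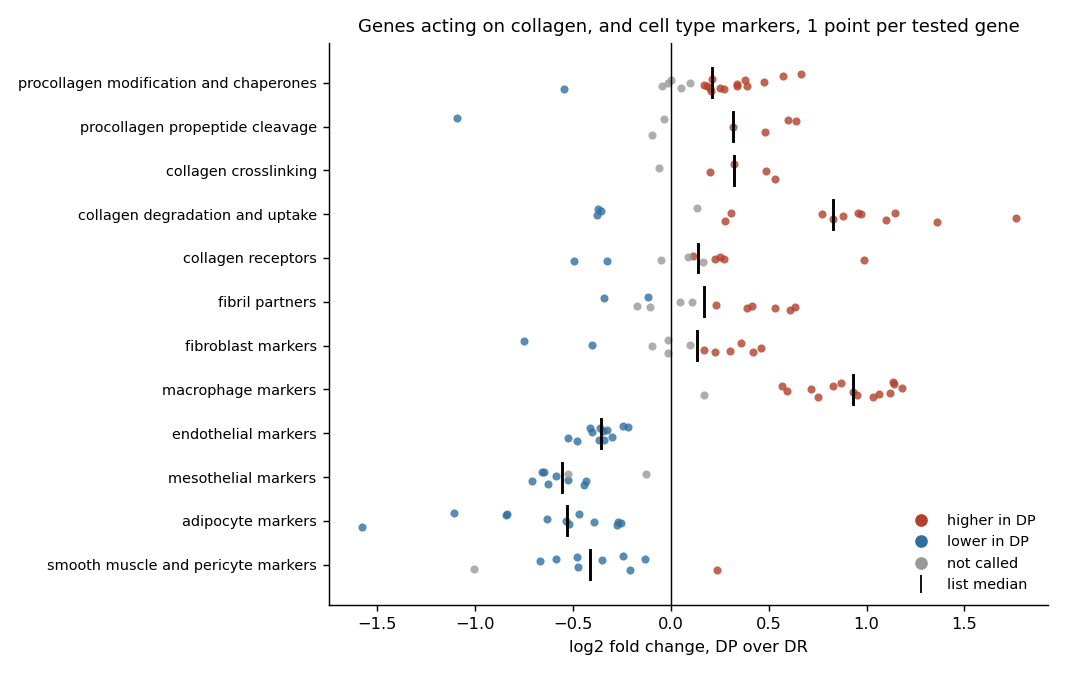
Log2 fold change, DP over DR, of each tested gene in 6 lists of genes that act on collagen and 6 lists of cell type markers, coloured by the edgeR call, with a black line at each list's median. The collagen-related medians lie between 0.14 and 0.83, the fibroblast markers at 0.14, the macrophage markers at 0.93, and the endothelial, mesothelial, adipocyte and smooth muscle medians below 0.

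Markers of the cells in the depot moved as well. In bulk tissue, fewer cells of a type and less RNA per cell cannot be told apart. Of 12 fibroblast markers 6 were higher in DP, 2 were lower and 4 were not called, with a median log2 fold change of 0.14. Their summed level ranged from 3879 to 5545 CPM in DP (median 4183) and from 4223 to 7813 CPM in DR (median 6217). Most of that sum was *Gsn*, which averaged 3028 ± 401 CPM in DP and 5085 ± 893 CPM in DR (1.68-fold lower, edgeR adjusted p = 5.09e-09). *Pdgfra* and *Pdgfrb*, receptors that mark stromal and mural cells, were 1.34-fold and 1.17-fold higher (edgeR adjusted p = 2.44e-06 and 6.84e-06). With the mean log2 CPM of the fibroblast markers as a covariate, 16 chains were higher and 4 were lower. Because these markers moved in both directions, their mean may not follow fibroblast content. Whether that content had a part in the collagen differences was not tested.

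The summed level of the macrophage markers separated the groups. Of 15 markers 14 were higher in DP and *Mertk* was not called, with a median log2 fold change of 0.93. Their summed level ranged from 4567 to 6663 CPM in DP and from 1748 to 4087 CPM in DR, without overlap. The largest part of that sum was *Lyz2*, which averaged 2076 ± 314 CPM in DP and 1016 ± 258 CPM in DR. Single markers did not all separate the groups, which overlapped for *Adgre1*, *Cd68* and *Trem2* among others. The complement genes *C1qa*, *C1qb* and *C1qc* were 1.65-fold, 1.83-fold and 1.78-fold higher (edgeR adjusted p = 1.95e-10, 3.93e-10 and 4.44e-10). With the mean log2 CPM of these markers as a covariate, edgeR called 0 of the 35 collagen chains in either direction, while 4 were higher and 1 was lower at an unadjusted p below 0.05. Over all 17482 genes the same fit called 3 genes higher and 11 lower. The marker level and the group thus cannot be told apart in these libraries, and no other tool was run with this covariate.

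Markers of endothelial, fat, mural and mesothelial cells were mostly lower in DP. All 12 endothelial markers were lower (median log2 fold change -0.35, summed level 793 to 1263 CPM in DP and 1036 to 1478 CPM in DR), led by *Kdr*, *Erg* and *Robo4* at 1.44-fold, 1.4-fold and 1.32-fold lower (edgeR adjusted p = 1.08e-07, 3.24e-07 and 2.25e-06). All 12 adipocyte markers were lower (median -0.53), led by *Adipoq*, *Plin4* and *Lipe* at 2.15-fold, 1.79-fold and 1.55-fold lower (edgeR adjusted p = 6.07e-11, 5.18e-10 and 1.14e-09). Of 10 smooth muscle and pericyte markers 8 were lower, 1 was higher and 1 was not called (median -0.41, summed level 725 to 1159 CPM in DP and 942 to 1617 CPM in DR), with *Rgs5*, *Tagln* and *Notch3* 1.39-fold, 1.5-fold and 1.15-fold lower (edgeR adjusted p = 7.68e-07, 0.00021 and 0.0015). Of 10 mesothelial markers 8 were lower and 2 were not called (median -0.56, summed level 56.9 to 159 CPM in DP and 88.5 to 263 CPM in DR), with *Upk3b*, *Gpm6a* and *Bnc1* 1.64-fold, 1.56-fold and 1.44-fold lower (edgeR adjusted p = 0.000482, 0.000538 and 0.00259). Of 5 tested Schwann cell markers 3 were lower, 1 was higher and 1 was not called. Of 3 tested ovary markers, *Cyp11a1* was 1.6-fold higher (edgeR adjusted p = 0.00195), at 0.916 CPM in DP and 0.572 CPM in DR. The other 2, *Inha* and *Star*, were not called. Whether these shifts had a part in the differences between collagen classes was not tested.

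How evenly the mice shared the pattern was read from the 17 chains called higher, as a description that the calls themselves favour. In DP libraries, 13 to 17 of the 17 chains lay above their DR median, with a median of 17 and the lowest count in replicate 14. In DR libraries 0 to 17 lay above it, with a median of 9. DR replicate 11 had 0 and DR replicate 8 had all 17, with 1474 CPM of *Col1a1* and 55.3 CPM of *Col6a5*, so 1 DR mouse stood above its group's median throughout. DR replicate 9, whose collagen share of counts of 1.82% was the highest of the DR group, had 14. Without DR replicate 9, 18 chains were higher and 4 lower, without DP replicate 14, 18 were higher and 3 lower, and without DP replicate 3, 16 were higher and 4 lower.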

How the data were processed

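Gene counts of gWAT from 15 DP and 15 DR female NZO mice were analysed. The authors deposited estimated counts, as whole numbers without scaling, and the submitters' processing notes name StringTie 2.1.3b and GRCm38.p6. Total RNA (miRNeasy kit) was sequenced on a BGISEQ instrument. Neither the aligner nor the use of strand in counting is given in the sources used here, so reads of overlapping genes cannot be told apart. All 30 count columns were used and 0 were left unused. No 2 libraries agreed within sampling noise (in 435 pairs, chi-square divided by its degrees of freedom was at least 7.46). Groups came from the labelled disease state, and replicate numbers follow deposition order. The labels name no litter or batch, so the tests treat the mice as independent. The p-values set a group difference, or a relation within a group, against the variation between these mice.

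Counts were fitted with edgeR 4.0.16 in R 4.3.3 (TMM, filterByExpr with a minimum count of 10 and a minimum total of 15, quasi-likelihood F test, group as the only term), with Benjamini-Hochberg adjustment over 17482 genes and a threshold of 0.05. The fit was tested on simulated counts with known changes in a small part of the genes. That test does not cover data in which 55.5% of genes were called. Standard errors (SE) of log2 fold changes came from the F statistic, and 95% intervals are normal ones based on them. FPKM are CPM divided by the merged length of all exons annotated for the gene in GENCODE M21. Ratios used counts with 0.5 added, and relations used log2 CPM with a prior count of 2. Both were tested by permutation with 100000 resamples (NumPy 2.4.6), with ranks for rho from SciPy 1.17.1. Promoter windows came from RefSeq.

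Full values are given for chains with at least 5 FPKM and for up to 4 chains of each class with the smallest p, and for up to 3 genes of each of 14 lists with the smallest p. Members, classes and lists were chosen with earlier results of these data known. Alternatives covered DESeq2 1.42.0, limma-voom (limma 3.58.1), other scaling factors and filters, covariates, a 1.5-fold minimum and leaving out each of the 30 libraries.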

Additional observations from a re-analysis of the deposited data

How the results depend on the processing

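The count of 17 chains higher and 3 lower in DP was 17 and 3 with DESeq2 and with relative log expression factors, 16 and 5 with limma-voom, 16 and 4 with upper quartile factors, with library number or with fibroblast markers as a covariate, 18 and 3 with no composition factor and 18 and 4 with no filter. It was 13 and 0 of the 22 chains with a mean FPKM over 1, where the 3 chains lower in DP were not tested, 7 and 3 with a 1.5-fold minimum, and 0 and 0 with macrophage markers as a covariate. Leaving out 1 library gave 16 to 18 higher and 3 to 4 lower. *Col28a1* lost its call with limma-voom, upper quartile factors, no filter and either library number or fibroblast markers as a covariate, and *Col4a6* or *Col17a1* gained one (lower) in some fits. *Col16a1* was called higher with no composition factor and without DR replicate 6, *Col9a3* in some fits that left out 1 library, *Col11a1* and *Col9a3* with no filter, and *Col9a2* was called lower with no filter. The 8 ratios kept their side of the threshold with 5 added to each count and as differences of log2 CPM, and Pearson's r of the 10 relations kept its side with a prior count of 0.5 and with no composition factor. With Spearman's rho, *Col1a1* and *Col4a1* in DR did not pass (adjusted permutation p = 0.29).

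Log2 fold changes that changed sign belonged to chains near 0 or came with the macrophage covariate. With that covariate they were -0.092 for *Col11a2*, 0.081 for *Col13a1*, 0.062 for *Col17a1*, 0.069 for *Col23a1*, 0.004 for *Col4a2*, -0.007 for *Col4a5*, -0.041 for *Col5a3* and 1.26 for *Col6a4*. With fibroblast markers as a covariate they were -0.015 for *Col14a1* and -0.16 for *Col8a2*. With limma-voom they were 0.006 for *Col23a1* and -0.065 for *Col8a2*, with no composition factor 0.015 for *Col23a1* and 0.003 for *Col4a2*, with upper quartile factors -0.011 for *Col4a1* and -0.016 for *Col8a2*, and with library number -0.015 for *Col8a2*. Leaving out 1 library moved *Col23a1* between -0.071 and 0.027, *Col4a1* between -0.001 and 0.034 and *Col8a2* between -0.066 and 0.076. The causes were not tested.

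No paired analysis was possible because each library has its own number and replicate numbers follow deposition order. Chains under 1 FPKM rest on few counts, and RNA levels say nothing of deposited collagen protein, which was not analysed here.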
